A study of Homo sapiens with 7 samples.

Results

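The E2F transcription factors and the RB pocket proteins that bind them were compared between Brit1 knockdown and control cells of MCF-10A, an epithelial line from human breast that is not transformed. The members were the probes whose annotated gene symbol was E2F1, E2F2, E2F3, E2F4, E2F5, E2F7, E2F8, RB1, RBL1 or RBL2. All 10 genes were on the array, with 11 probes, among 19304 named genes. The study knocked down genes linked to homologous recombination, Brit1 (a DNA damage response gene) among them, and profiled expression. The 4 shBrit1 arrays came from cells with the Brit1 hairpin and the 3 shControl arrays from cells with a scrambled hairpin, both delivered by lentivirus and followed by selection of stable cells. Both kinds of cell grew in the same medium and were harvested 48 h after seeding. The submitters call the arrays of a group biological replicates but do not say how they differ, so the p-values measure the spread between these arrays. Whether a line was 1 clone or a pool is not stated. Brit1 itself was not analysed here. Groups are therefore named as labelled, with no check of the knockdown.

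E2F factors bind promoters of genes for DNA synthesis and cell division, and pocket proteins hold them in check until cyclin-dependent kinases phosphorylate the pocket protein late in G1. E2F1, E2F2 and E2F3 are the activators bound chiefly by the product of RB1, whereas E2F4 and E2F5 work mainly with p107 and p130, the products of RBL1 and RBL2, as repressors in resting cells. E2F7 and E2F8 are atypical members that bind DNA without a DP partner, are themselves induced by E2F activity, and repress E2F targets. In mammary epithelial cells, as elsewhere, this switch decides entry into S phase. MCF-10A cells lack the chromosome region that encodes the CDK inhibitor p16, which normally keeps RB active.

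Several members are known E2F targets themselves, so their promoters were searched for E2F sites. The motifs were TTTGGCGC and TTTCCCGC, on either strand, in RefSeq windows (GRCh38.p14) of 250 bases before to 50 bases after an annotated start. Windows were at hand for 8 of the 10 members, all but E2F5 and E2F8. A member was counted if any of its windows held the motif. A gene can have several windows, so shares by gene and by window differ. The first motif was found in 3 of them, E2F1, E2F2 and RBL1, against 125 of 9823 tested genes with a window. By window it was in 0.652% of all 35116. The second was found in E2F3 alone among the members, against 314 of the 9823 tested genes, and in 1.63% of all windows. The 4 windows with a match are shown from 100 bases before to 50 bases after the start. They run 5′ to 3′ on the gene's strand, with the match in capitals. They lie at chr20:33686336-33686485 (minus strand) for E2F1, chr1:23531184-23531333 (minus strand) for E2F2, chr20:37095948-37096097 (minus strand) for RBL1 and chr6:20401779-20401928 (plus strand) for E2F3.
E2F1: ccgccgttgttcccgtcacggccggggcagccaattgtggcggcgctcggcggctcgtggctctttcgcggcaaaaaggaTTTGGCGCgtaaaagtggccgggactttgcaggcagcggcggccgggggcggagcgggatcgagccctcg
E2F2: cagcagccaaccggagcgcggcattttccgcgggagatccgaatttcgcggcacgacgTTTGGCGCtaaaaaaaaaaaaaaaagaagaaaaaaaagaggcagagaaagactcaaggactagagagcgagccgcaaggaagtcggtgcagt
RBL1: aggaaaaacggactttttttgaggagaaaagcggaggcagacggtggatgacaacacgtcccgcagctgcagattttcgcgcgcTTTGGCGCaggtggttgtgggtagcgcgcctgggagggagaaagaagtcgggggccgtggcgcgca
E2F3: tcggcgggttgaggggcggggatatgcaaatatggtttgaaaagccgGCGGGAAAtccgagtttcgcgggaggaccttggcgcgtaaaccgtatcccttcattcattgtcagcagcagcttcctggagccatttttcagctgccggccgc
The match began at position -20 in E2F1, -42 in E2F2, -16 in RBL1 and -53 in E2F3, where it lay on the opposite strand. Neither motif was in the windows of E2F4, E2F7 and RBL2, and the RB1 window lay inside the annotated gene rather than at its outermost start. E2F4 and E2F7 were also lower in shBrit1, and E2F5, the member that was higher, had no window. Of the members with a window only RBL2 was not lower, so the motif cannot be set against the direction of the members. A match is a run of letters and does not show that a factor was bound.

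Each array gave a bead signal and a detection p-value per probe. Between 16537 and 17343 of 48701 probes were detected on an array (detection p under 0.05), and 17967 probes detected on at least 3 of the 7 arrays were tested, covering 12372 named genes. The shBrit1 arrays correlated at 0.995 to 0.998 with each other, and shControl replicates 1 and 2 at 0.997. The third shControl array stood apart from both, at 0.975 and 0.977, and values with and without it are given where it changes a result. All 7 listed basal or general epithelial markers on the array (KRT5, KRT14, EGFR, LAMB3, ITGB4, CDH1 and EPCAM) were detected on all 7 arrays. PDGFRA and PDGFRB of fibroblasts, CD3D of T cells and CDH5 and VWF of endothelium were detected on none. The summed level of these epithelial markers ran from 33702 to 62704 on the shControl arrays and from 26773 to 29827 on the shBrit1 arrays. The highest sum was on shControl replicate 3, where KRT14 was at 14.52 against 12.82 and 12.81 on the others. KRT14 (log2 difference -1.72), KRT5 (-0.66) and EPCAM (-0.70) were lower in shBrit1, ITGB4 (0.98) was higher and 3 did not pass the test. For the 4 immune markers on the array it ran from 127 to 145 and from 339 to 439, and CD14 among them was higher in shBrit1 (log2 difference 2.68). Other markers were detected on all 7 arrays, COL1A1 of fibroblasts and PECAM1 of endothelium among them. COL1A1 and COL3A1 were higher in shBrit1 (log2 differences 1.11 and 0.92), and PECAM1 had a difference of -0.16 (adjusted p = 0.141). The summed fibroblast level ran from 194 to 217 in shControl and from 327 to 361 in shBrit1, and the endothelial from 139 to 152 and from 141 to 158. Of the 6 luminal markers tested GATA3 (2.48) and KRT19 (1.60, detected on no shControl array) were higher and FOXA1 (-0.39) lower. PGR was detected on no array. The summed luminal level ran from 2083 to 5802 in shControl and from 5150 to 5555 in shBrit1. Its low end was shControl replicate 3, where KRT8 was at 10.57 against 12.22 and 12.07 on the others. The part of these lists in the results below was not tested.

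The E2F and pocket protein genes were mostly lower in shBrit1. Of the 10 members 8 were lower, 1 was higher and 1 did not pass the test (limma, adjusted p under 0.05 over all probes tested). Among all 12372 genes tested 59.6% were called, 30.1% lower and 29.5% higher. At least 2-fold lower were 6 members, against 9.69% of all genes, and at least 2-fold higher 0 members, against 9.76%. The groups did not overlap in 9 members, against 61.8% of all genes. The median log2 difference of the members was -1.27, and that of all genes was -0.01. With median scaling in place of quantile normalization the median over all probes shifted to -0.10, and 36.2% of genes were lower and 21.2% higher, while the members counted lower and higher were again 8 and 1. In bulk RNA, fewer cells that express a gene and less of its RNA per cell cannot be told apart.

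**Figure D1:**
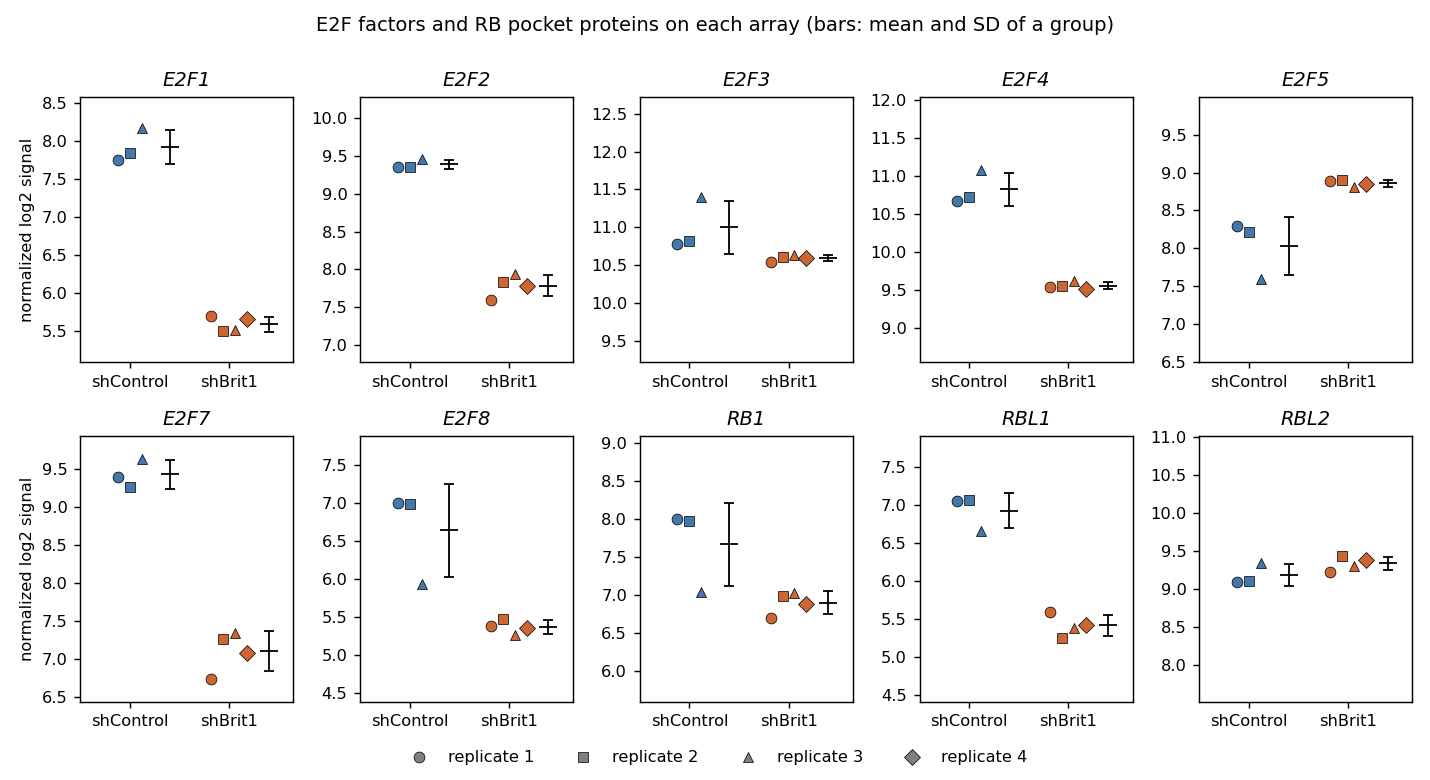
Normalized log2 signal (vertical axis, the same span in each panel) of each member on the 3 shControl arrays (blue) and 4 shBrit1 arrays (orange), with marker shapes for replicate numbers and the mean and SD of each group beside the points. In E2F1, E2F2, E2F4 and E2F7 the groups are far apart, and for E2F8 and RB1 the third shControl array lies close to the shBrit1 arrays.

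Among the activators, E2F1, which drives S-phase genes and is itself a target of E2F activity, fell furthest with the background correction used here. Its normalized log2 signals were 7.75, 7.85 and 8.17 on shControl replicates 1 to 3 and 5.70, 5.51, 5.51 and 5.66 on shBrit1 replicates 1 to 4. Every control lay far above every knockdown array. E2F1 was 5.03-fold lower, with a log2 difference of -2.33 (SE 0.12, 95% interval -2.60 to -2.06, adjusted p = 1.13e-06). Its bead signal was 108 to 117 on the shBrit1 arrays, where the median of all probes is 82.3 to 87.6, so the size of the fall depends on the background correction. With no background correction the log2 difference was -1.36. E2F2 was at -1.32 or below under every alternative processing, so without background correction the lead of E2F1 over E2F2 was small or absent.

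E2F2, a second activator of the same class, had log2 signals of 9.35, 9.35 and 9.46 in shControl and of 7.60, 7.84, 7.94 and 7.79 in shBrit1. The controls were nearly equal, and every knockdown array lay well below them. E2F2 fell 3.03-fold (log2 difference -1.60, SE 0.10, adjusted p = 3.29e-06). E2F3, the third activator, is needed for normal S-phase entry in many cell types. Its values were 10.79, 10.82 and 11.40 in shControl against 10.55, 10.62, 10.63 and 10.60 in shBrit1. The groups did not overlap, but the first pair of controls lay close above the knockdown arrays and the third control well above both. The fitted difference of E2F3 was -0.40 (SE 0.15, 95% interval -0.74 to -0.06, adjusted p = 0.0471), a 1.32-fold fall. Without shControl replicate 3 it was -0.20 (adjusted p = 0.0482), and with any of the 4 shBrit1 arrays left out the adjusted p ran from 0.0857 to 0.102. With no filter on dim probes it was 0.100. The intervals of E2F1 and E2F2 lay wholly below that of E2F3.

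Of the repressor class, E2F4 and E2F5 went in opposite directions. E2F4, the E2F most often found on promoters in resting cells, had log2 signals of 10.67, 10.73 and 11.07 in shControl. In shBrit1 they were 9.53, 9.55, 9.62 and 9.51. The knockdown arrays were nearly equal and lay far below all controls. E2F4 fell 2.41-fold (log2 difference -1.27, SE 0.11, adjusted p = 2.08e-05). E2F5, its close relative and a partner of p130, was the single member that rose. Its values were 8.30, 8.21 and 7.60 in shControl and 8.88, 8.90, 8.80 and 8.84 in shBrit1. All knockdown arrays were above all controls, and the third control was the lowest. E2F5 was 1.77-fold higher (log2 difference 0.82, SE 0.16, 95% interval 0.46 to 1.19, adjusted p = 0.00222), and 1.51-fold higher without that control (adjusted p = 7.89e-05).

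The atypical factors fell as well. E2F7 had log2 signals of 9.39, 9.26 and 9.63 in shControl and of 6.73, 7.25, 7.33 and 7.07 in shBrit1. The knockdown arrays were more spread than for any other member, and all lay far below the controls. E2F7 was 5.03-fold lower, a log2 difference of -2.33 (SE 0.16, 95% interval -2.69 to -1.97, adjusted p = 4.51e-06). Its interval overlaps that of E2F1, and the difference between these falls was not tested. Under the alternative analyses listed below, E2F7 ranged from -2.53 to -1.83. E2F8, which forms dimers with E2F7, had values of 6.998, 6.992 and 5.931 in shControl and of 5.38, 5.48, 5.26 and 5.35 in shBrit1. The third control lay well below the other controls and nearer to the highest knockdown array, though above it. The difference was -1.27 (SE 0.24, adjusted p = 0.00188), a 2.42-fold fall, and 3.10-fold without the third control. E2F8 was close to background in shBrit1, with a bead signal of 101 to 107, and with no background correction its log2 difference was -0.62.

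The pocket proteins parted. RBL1, whose product p107 is made mainly in cycling cells, had log2 signals of 7.05, 7.07 and 6.66 in shControl and of 5.60, 5.25, 5.39 and 5.43 in shBrit1. All controls lay far above all knockdown arrays. RBL1 fell 2.85-fold (log2 difference -1.51, SE 0.13, adjusted p = 1.70e-05). With no background correction the difference was -0.75. These values are from 1 of the 2 RBL1 probes, since the other was not detected on any array (detection p 0.778 to 0.967) and was not tested.

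RB1 encodes the retinoblastoma protein, the main brake on the activator E2Fs. Its log2 signals were 7.99, 7.97 and 7.04 in shControl and 6.69, 6.99, 7.03 and 6.88 in shBrit1. The first pair of controls lay well above the knockdown arrays, whereas the third control was level with the highest of them. RB1 was 1.71-fold lower over all arrays (log2 difference -0.77, SE 0.22, 95% interval -1.28 to -0.26, adjusted p = 0.0173) and 2.11-fold lower without the third control (adjusted p = 4.51e-06). The call was lost when either of the other controls was left out, with adjusted p of 0.0638 without replicate 1 and 0.0659 without replicate 2. It was also lost without shBrit1 replicate 1 (0.0546) and with no filter on dim probes (0.0520). With no background correction the RB1 difference was -0.53 (adjusted p = 0.0217).

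RBL2 encodes p130, the pocket protein that predominates in resting cells. It was at 9.09, 9.10 and 9.34 in shControl and at 9.22, 9.43, 9.30 and 9.37 in shBrit1. The groups overlapped, with the third control inside the range of the knockdown arrays. Its log2 difference was 0.15 (SE 0.10, 95% interval -0.08 to 0.38, adjusted p = 0.239). With median scaling the difference was -0.13, and without the third control it was 0.23 and passed the test (adjusted p = 0.0400).

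**Figure D2:**
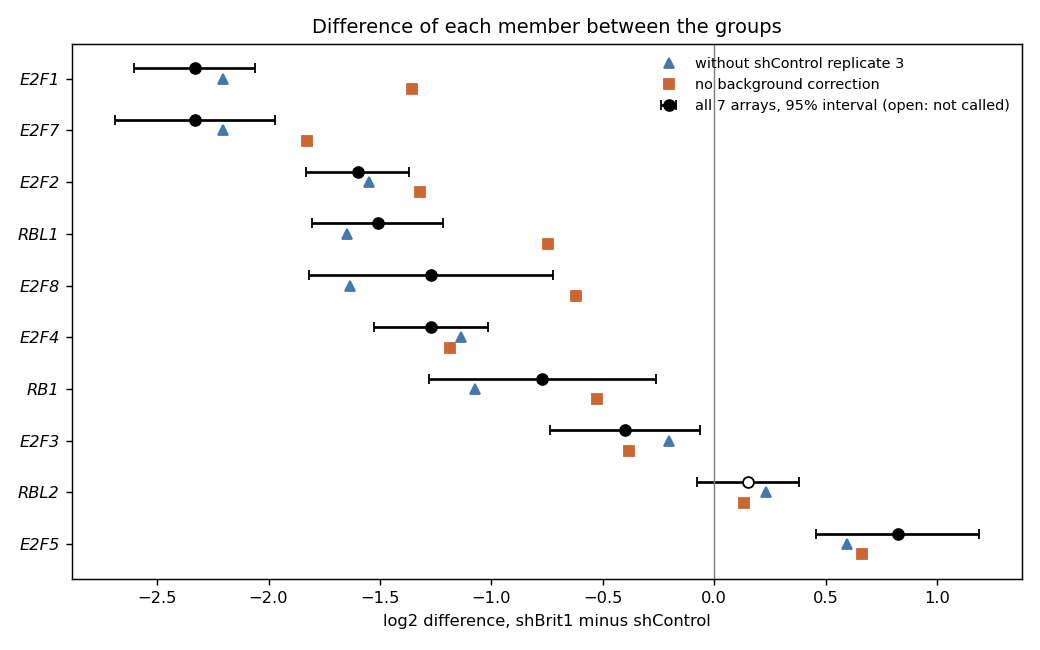
Log2 difference of each member (horizontal axis, shBrit1 minus shControl) over all 7 arrays with its 95% interval (black), without shControl replicate 3 (blue) and with no background correction (orange). E2F1 and E2F7 lie at -2.33, and E2F5 is the highest at 0.82. The values without background correction are closer to 0 for E2F1, RBL1, E2F8 and RB1, among others.

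The third control moved members in different directions. Against the mean of the other controls it was higher for 6 members and lower for 4. It was higher by 0.60 for E2F3, 0.38 for E2F4 and 0.37 for E2F1, and differed by -1.06 for E2F8, -0.95 for RB1, -0.66 for E2F5 and -0.39 for RBL1. Leaving it out therefore enlarged the fall of E2F8, RB1 and RBL1 (to log2 differences of -1.63, -1.08 and -1.65) and reduced that of E2F1, E2F4 and E2F3 (to -2.20, -1.14 and -0.20). Without it 8 of the 10 members were lower and 2 higher, against 34.8% and 35.0% of the 12125 genes then tested.

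Over the 7 arrays, the genes whose log2 signals followed a member most closely differed between members. The 7 arrays fall into the 2 groups, so these correlations can follow the step between groups. They can also follow the third shControl array, which differed from the other controls by 0.60 for E2F3 and -0.95 for RB1. The groups of RBL2 overlapped. The correlations are given as a description. For E2F1 the nearest genes were PRELID1, CAMK2N1 and EBP (Pearson's r 0.999 each). CDK5R1 and RECQL4, a helicase of DNA replication and repair, were among the nearest 3 genes of both E2F2 (r = 0.999 each) and E2F7 (r = 1.000 and 0.998). E2F8 was followed most closely by DEPDC1B, CTH and BCYRN1 (0.996 to 0.997). RB1 was followed by BMAL1, CEP120 and TMPO (0.997 to 0.998) and E2F5 by TECR, LPIN1 and GSR (0.997 to 0.999). For RBL1 the genes were GEMIN6, SLC35G1 and TNFRSF6B, for E2F4 EYA3, ORMDL2 and RPN1, and for E2F3 SCARA3, CTNND1 and PTGS1. RBL2, which had the smallest difference, had the loosest neighbours, NFIA, ITGA1 and FBXW7 (0.981 to 0.985).

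The partners and regulators of the members were then described from lists of pathway genes. The counts of these lists stand against 30.1% lower and 29.5% higher among all genes tested. Those shares were 36.2% and 21.2% with median scaling, and 34.8% and 35.0% without shControl replicate 3. Of the DP proteins, which pair with E2F1 to E2F6 to bind DNA, TFDP1 fell 1.79-fold (log2 difference -0.84, SE 0.13, adjusted p = 5.84e-04) and TFDP2 rose 1.36-fold (0.45, SE 0.10, adjusted p = 0.00485). TFDP2 was near background, with a bead signal of 111 to 151. Its difference ranged from 0.21 to 0.52 over the alternative analyses, and the call was kept in all 18. E2F6, a repressor that acts without pocket proteins, fell 1.67-fold. Among the cyclins and kinases that phosphorylate pocket proteins, 6 of 8 tested genes were lower and 1 was higher, with a median of -0.88. The E-type cyclin gene CCNE2 went from 9.90 ± 0.20 (SD, n = 3) to 6.94 ± 0.14 (SD, n = 4) on the log2 scale, a 7.78-fold fall with an adjusted p of 4.01e-07. With no background correction the CCNE2 difference was -2.36 against -2.96. CCNE1 fell 2.71-fold and the A-type cyclin gene CCNA2 4.34-fold. CDK2, the kinase these cyclins activate, fell 1.61-fold by the brighter of its probes, while the next brightest gave a log2 difference of -0.44 (adjusted p = 0.238). The D-type cyclin gene CCND1 was lower (-1.08) and CCND3 higher (0.30), and with median scaling 7 of these genes were lower and 0 higher. CDK4 had a difference of -0.10 (adjusted p = 0.386).

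Of 4 tested CDK inhibitors 2 were higher and 1 lower, with a median of 0.74. CDKN1C, which encodes p57, rose from 5.33 ± 0.41 (SD, n = 3) to 8.91 ± 0.14 (SD, n = 4), 12.0-fold, with an adjusted p of 1.01e-06, and was detected on 2 of the 3 control arrays. With no background correction its difference was smaller, at 2.27 against 3.58 on the log2 scale. CDKN1B, which encodes p27, an inhibitor of cyclin E with CDK2, rose 3.19-fold (log2 difference 1.67, SE 0.17). CDKN1A, which encodes p21, had a difference of -0.19 (adjusted p = 0.212), and CDKN2D was 1.26-fold lower. Neither CDKN2A, which encodes p16, nor its neighbour CDKN2B passed the detection filter.

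MuvB proteins join p107 or p130 and E2F4 in the repressive DREAM complex, and later B-MYB and FOXM1. In a list of MuvB genes, these partners and the kinase gene DYRK1A, 4 of 8 tested were lower and 1 higher (median -0.51). The share called was close to the 59.6% of all genes. Of the MuvB core genes LIN9 and LIN54 fell 2.73-fold and 1.78-fold, LIN52 was lower (log2 difference -0.64), LIN37 rose 1.40-fold and RBBP4 did not pass the test (-0.39). LIN52 was detected on 2 of 3 shControl and 2 of 4 shBrit1 arrays, and its groups overlapped. RBBP4 was near background, with a bead signal of 99 to 128. FOXM1, which activates mitotic genes, fell 3.87-fold (-1.95, against -1.26 with no background correction). MYBL2, the gene of B-MYB, had a difference of -0.08 (adjusted p = 0.615). Its bead signal of 90 to 110 was near background, and it was not detected on shBrit1 replicate 1, so a change could be missed. Of 7 genes of the ubiquitin ligases that turn over E2F and cell cycle proteins, 5 were lower and 0 higher (1 higher without shControl replicate 3). These included CCNF, a ubiquitin ligase subunit that targets E2F proteins (3.28-fold lower), SKP2, which targets E2F1 and p27 (1.86-fold lower, a log2 difference of -0.89, against -2.14 by its next brightest probe), FBXO5, an inhibitor of the anaphase-promoting complex (3.67-fold lower), and CDC20, an activator of that complex (2.36-fold lower).

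Most E2F target genes of the G1 to S transition were lower. Of 29 tested 26 were lower and 1 higher, with a median of -1.65 (28 lower and 1 higher with median scaling). The phosphatase gene CDC25A fell 7.49-fold (log2 difference -2.91, SE 0.09, adjusted p = 1.40e-07), UHRF1, which carries DNA methylation through replication, 6.28-fold, the replisome gene CDC45 4.91-fold and POLA2, a subunit of the priming polymerase, 4.48-fold. With no background correction the differences of CDC25A and CDC45 were -1.98 and -1.60, against -2.91 and -2.30. The single gene that rose was POLA1, the catalytic subunit of the same polymerase (log2 difference 0.64, SE 0.18). CDT1 and PRIM1 did not pass the test, at -0.04 and -0.50. Of the G2 and mitotic genes bound by DREAM or FOXM1, 20 of 21 were lower and 0 higher (median -1.34; 1 higher without shControl replicate 3), among them AURKA (3.06-fold), TTK (2.95-fold), CCNB1 (2.64-fold) and BUB1 (3.92-fold). The proliferation marker MKI67 was among them, with a log2 difference of -1.34. CDC25B, a phosphatase gene, did not pass the test (0.38).

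The remaining lists were split, with shares called not far from the 59.6% among all genes. Of 8 tested apoptotic targets of E2F1, 3 were higher and 2 lower, with a median of 0.11 (4 higher and 2 lower without shControl replicate 3). CASP9, an initiator caspase, rose 2.78-fold, DIABLO and BBC3, both promoters of cell death, rose 1.72-fold and 1.59-fold, and APAF1, the scaffold that activates caspase 9, fell 1.95-fold. The next brightest CASP9 probe gave a log2 difference of 0.29 (adjusted p = 0.0376), against 1.47. The other lower gene of this list was PMAIP1, which fell 2.25-fold (log2 difference -1.17). Among the chromatin partners of RB, 3 of 12 were higher and 3 lower, with a median of -0.01, against 1 higher and 5 lower with median scaling, and 5 higher and 4 lower without shControl replicate 3. DNMT1, the maintenance DNA methyltransferase, fell 4.83-fold and SUV39H1, a histone H3 methyltransferase, 2.25-fold. RBBP7, a histone-binding subunit, fell 1.59-fold and SIN3A, a scaffold of deacetylase complexes, rose 1.70-fold.

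**Figure D3:**
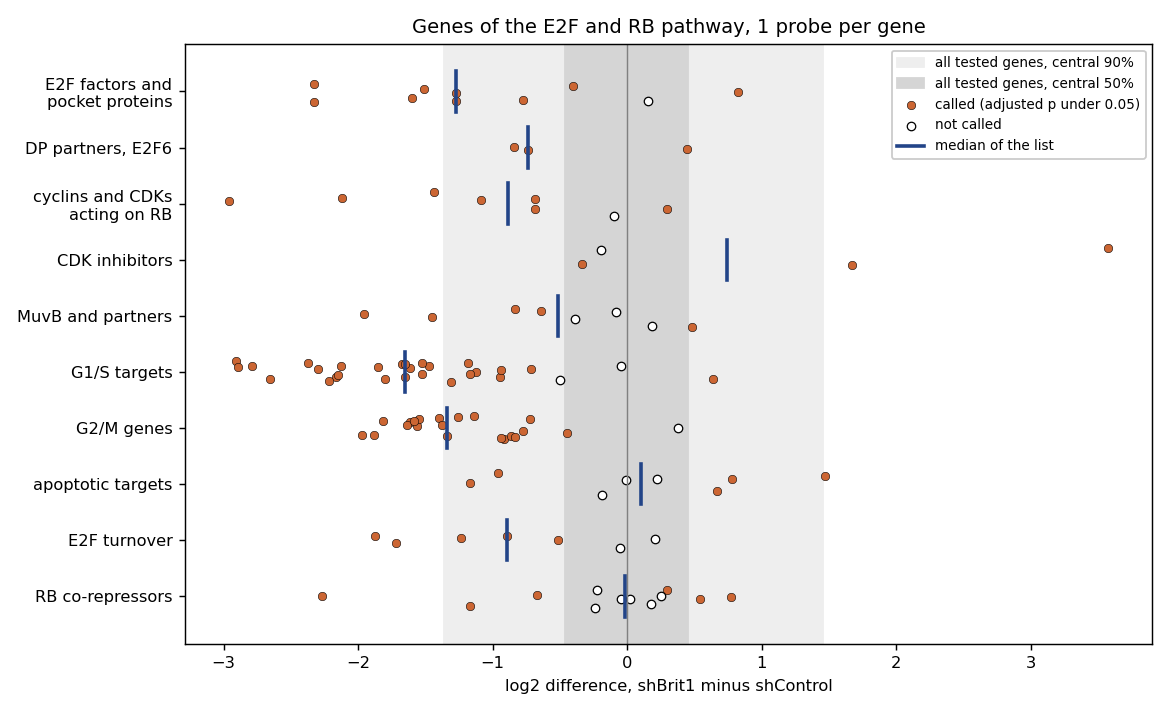
Log2 difference (horizontal axis, shBrit1 minus shControl) of each tested gene of 10 lists, filled where the adjusted p was under 0.05, with the list median as a bar and the central 50% and 90% of all tested genes shaded. The G1/S targets have a median of -1.65 and the G2/M genes of -1.34, both below the central 50% of all genes, whereas the CDK inhibitors have a median of 0.74.

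The motif found in the windows of E2F1, E2F2 and RBL1 was then followed over all tested genes. Of 9823 tested genes with a window, 30.7% were lower and 29.5% higher in shBrit1, with a median log2 difference of -0.02. Of the 125 whose window held TTTGGCGC, 60 were lower (48.0%) and 26 higher (20.8%), with a median of -0.30. With the members and the pathway lists left out, 51 of 115 were lower (44.3%) and 25 higher. Of the 314 whose window held TTTCCCGC, 132 were lower (42.0%) and 75 higher (23.9%), with a median of -0.22. Without shControl replicate 3 the lower shares were 53.7% and 47.9%, against 35.3% of all genes with a window. With median scaling they were 55.2% and 49.0%, against 37.1%. In the G1 to S list CDC25A, CDC6, EZH2, MCM6, POLA1 and POLE2 held the first motif, so the list's 1 gene that rose also carried it. These shares describe the genes, which are not independent replicates, and no test was made of them.

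**Figure D4:**
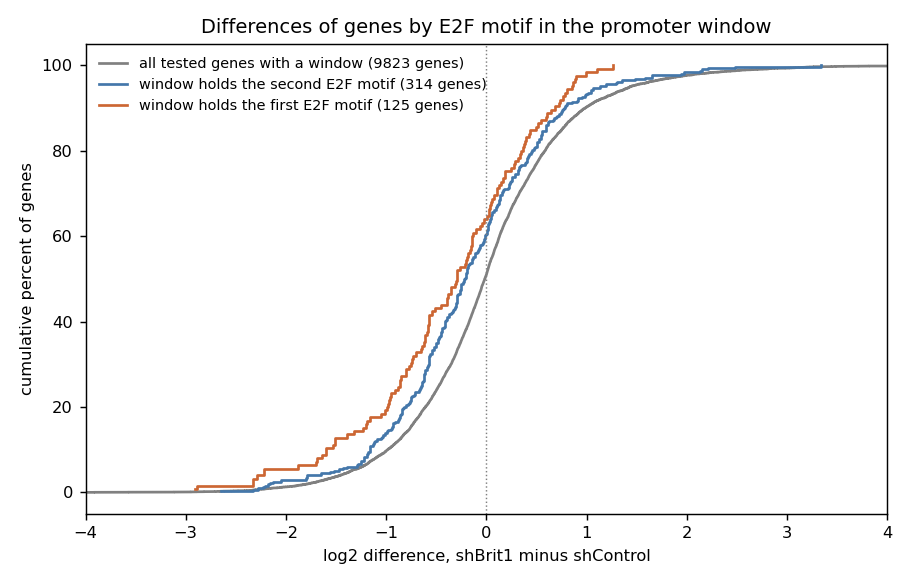
Cumulative percent of tested genes (vertical axis) by log2 difference (horizontal axis, shBrit1 minus shControl) for all 9823 genes with a promoter window, the 314 whose window held TTTCCCGC (second motif) and the 125 whose window held TTTGGCGC (first motif). The curve of the first motif has its median at -0.30 and that of all genes at -0.02.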

How the data were processed

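Biotinylated cRNA was made from total RNA with the Illumina TotalPrep kit, per the labels' protocols. Per the file headers, the deposited table pairs each array's linear bead intensity with its detection p-value. Its 1 line without values was left out. A second table that the authors deposited has log2 values, an alternative here, with 1 distribution shared by all arrays (median 6.37 on each). Their direction follows the signal (r at least 0.999 with the own array) and they are not centred per gene. The scanner and normalization software were not given in the sources at hand.

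Probe names came from the platform annotation (24782 of 48701 probes with 1 symbol, 0 with several, 23919 with none). Identifiers matched to RefSeq changed 0 symbols. Signals were background-corrected and normalized in R 4.3.3 by the neqc function of limma 3.58.1 (normexp on negative control values inferred from detection p-values, offset 16, quantile normalization, log2). Probes with a detection p under 0.05 on at least 3 of 7 arrays were tested with lmFit and eBayes, two-sided, with Benjamini-Hochberg adjustment over 17967 probes and a threshold of 0.05. The brightest kept probe stood for each gene. Folds are back-transformed log2 differences. The number of arrays limits the precision.

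Named genes were all members, the 4 genes of each pathway list with the smallest p-value, and the 3 genes most correlated with each member. POLA1, CDT1, PRIM1, MKI67, CCND1, CCND3, CDK4, MYBL2, LIN52, RBBP4, CDC25B, PMAIP1, the marker genes and the genes holding a motif were named after their values were seen. The members and lists were chosen with earlier results of these data known. The fit was tested on simulated data. Alternatives were no background correction, normexp with an offset of 50, median scaling, cyclic loess, the authors' values, no filter or detection on all arrays, a mean-variance trend, array weights, leaving out each array, a replicate block and the next brightest probe.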

Additional observations from a re-analysis of the deposited data

Results flagged for a closer look

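Of 45 genes checked over the 4 shBrit1 arrays, 1 had an array far from the others. SIN3A was at 10.10 on shBrit1 replicate 1 and at 10.30 to 10.32 on the other 3, a gap of 0.905 of the group's range. Chance gives about 1 such gene in 20.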

How the results depend on the processing

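Each of the 10 members was recomputed under 18 alternatives. For the next brightest probe nothing could change, since each member had 1 tested probe, so those 10 values repeat the main result. Of all 180 values, these repeats included, 167 kept their direction and their side of the threshold. E2F1, E2F2, E2F4, E2F5, E2F7, E2F8 and RBL1 did so under all 18. Calls were lost for E2F3 and RB1 in 10 values and gained for RBL2 in 2, and RBL2 reversed with median scaling (-0.13). The number of members higher was 2 with array quality weights, where 36.9% of all genes were higher. It was 1 to 2 when each array was left out in turn, where 26.7% to 35.0% of all genes were higher. In both cases the larger count came through RBL2, and the cause was not tested. The number of members lower ran from 6 to 8 over these, where 27.1% to 37.1% of all genes were lower. With no filter it was 6, where 18.4% of 19304 genes were lower. With median scaling 3589 probes were higher and 5690 lower, against 4829 and 4840. Same-numbered arrays of the groups deviated together only weakly (r 0.10, -0.02 and 0.09), so the numbers were not taken as pairs. The fit with the replicate block used the shared numbers and so also left out shBrit1 replicate 4. It gave 7 members lower and 1 higher and 8435 probes called, and E2F3 was not called (adjusted p = 0.0746). The same 6 arrays without the block gave 7, 1 and 8675, with E2F3 at 0.0919, against 9669 probes over all 7 arrays. Among all genes 26.7% were lower and 26.3% higher with the block, and 27.6% and 27.0% without it. Of 629 values of other named genes 624 kept direction and side, and any gene with 1 tested probe likewise repeats under the next brightest probe. Over all alternatives E2F1 ranged from -2.44 to -1.36, RBL1 from -1.67 to -0.75 and E2F8 from -1.63 to -0.62, each smallest with no background correction.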
